A study of Mus musculus with 7 samples.

Results

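The genes described here encode the matrix metalloproteinases (MMP), the tissue inhibitors of metalloproteinases (TIMP), the ADAM and ADAMTS proteases and the ADAMTS-like proteins (ADAMTSL). They were chosen by mouse GENCODE symbol alone, as Mmp, Timp, Adam, Adamts or Adamtsl followed by a number (for Adam also with a letter after it), a rule that uses no measured value, although the families were picked with earlier results of these data known. Of the 52230 genes with a transcript in the files, 86 were members, namely 24 MMP, 4 TIMP, 34 ADAM, 19 ADAMTS and 5 ADAMTSL genes. The symbol pattern also took in *Mmp24os1*, a protein-coding gene named for its place opposite *Mmp24*, which is counted with the MMP genes.

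RNA was sequenced from ovaries of female mice of the strain PRKO (Pgrtm1Bwo), either PGR +/+ (WT, 4 libraries, here WT1 to WT4) or PGR -/- (KO, 3 libraries, here KO2 to KO4), which the series text calls littermates. All mice were given 5 IU of eCG (PMSG in the labels) and, 44 h later, 5 IU of hCG, and ovaries were taken 8 h post-hCG at an age of 21 to 27 days by the sample labels (21 to 25 days by the series text). The ovaries were punctured to release granulosa cells, and the residual tissue of 3 mice was pooled for each library, so that the spread between replicates is a spread between pools. Because the KO mice lack a functional progesterone receptor in every tissue and throughout life, a difference between the groups cannot be assigned to a cell type or a time of loss.

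MMPs are zinc-dependent endopeptidases that are made as inactive proenzymes and cut collagens, gelatin and other matrix proteins once activated, and TIMPs bind their active sites. ADAMs are membrane-anchored relatives that release growth factors, cytokines and receptors from the cell surface. ADAMTS proteases are secreted and cut proteoglycans such as versican or process procollagens, while ADAMTSL proteins share their matrix-binding parts but not the protease domain. In the ovulating follicle these enzymes and inhibitors take part in the breakdown of the follicle wall and the expansion of the cumulus matrix, and *Adamts1* is a well-known target of the progesterone receptor in granulosa cells.

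Between 47.4 and 63.4 M reads were assigned per library. *Pgr* itself had 1014 to 1560 reads in WT libraries and 313 to 438 in KO libraries (log2 ratio of KO to WT −1.72 ± 0.20, the error being a standard error (SE), adjusted p = 0.0544 in edgeR and 3.80e-15 in DESeq2). Granulosa transcripts remained in the tissue, since the summed level of 10 granulosa markers was 3239 to 4834 CPM (read counts relative to the TMM-normalized library size) in WT and 3912 to 4887 CPM in KO. Markers of some other cells were lower in the KO libraries. The summed level of 7 smooth muscle and pericyte markers was 1914 to 2520 CPM in WT and 1450 to 1945 CPM in KO, and 5 of the 7 had an unadjusted p under 0.05, all lower in KO. The sum of 7 endothelial markers was 775.2 to 875.5 CPM in WT and 732.2 to 762.7 CPM in KO, with 3 of 7 lower at that level, and the sum of 7 theca markers was 10870 to 13780 CPM in WT and 9322 to 10600 CPM in KO, with 1 of 7 lower. At the same unadjusted p, 4 of 8 oocyte markers were higher in KO, 2 of 7 surface epithelium and 1 of 8 stromal fibroblast markers were lower, and 0 of 5 red blood cell and 0 of 10 granulosa markers had such a p. In whole tissue, fewer cells of a type and less RNA per cell cannot be told apart.

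Of the 86 members, 62 passed edgeR's filter on low counts and were tested. A gene was called at an adjusted p of 0.05 or less together with a log2 ratio of KO to WT (log2FC) of 0.5 or more in size. None of the 62 was called by edgeR's quasi-likelihood test, where 2 of all 19233 genes tested were (0.0104%), and the lowest adjusted p of a member was 0.236. At an unadjusted p under 0.05 there were 8 members (12.9%) against 8.94% of all genes. Without KO3 there were 5 of 62 members, against 1284 of all 19528 genes tested in that fit. With all libraries, 7 members (11.3%) were lower in KO at that level against 5.1% of all genes, and 1 member (1.61%) was higher against 3.84%. The KO libraries were all below the WT libraries for 4 members (6.45%), *Adam8*, *Mmp17*, *Adamts5* and *Adamts15*, against 5.12% of all genes, and above them for 0 members against 3.93%. In DESeq2, which gave 56 members an adjusted p, 1 member (*Adam8*) was called lower, against 0.502% of the 17517 genes. Limma-voom called 0 members and 2 of all 19233 genes, and gave 9 members and 1679 of all genes an unadjusted p under 0.05. The median log2FC of the 62 members was −0.05 (36 lower, 26 higher) against 0.00 for all genes, and the median size of the change was 0.15 against 0.10. The order of these sizes was the other way where more genes were tested. It was 0.173 against 0.230 in DESeq2 (32770 genes) and 0.176 against 0.228 in edgeR without a filter (32790 genes).

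**Figure D1:**
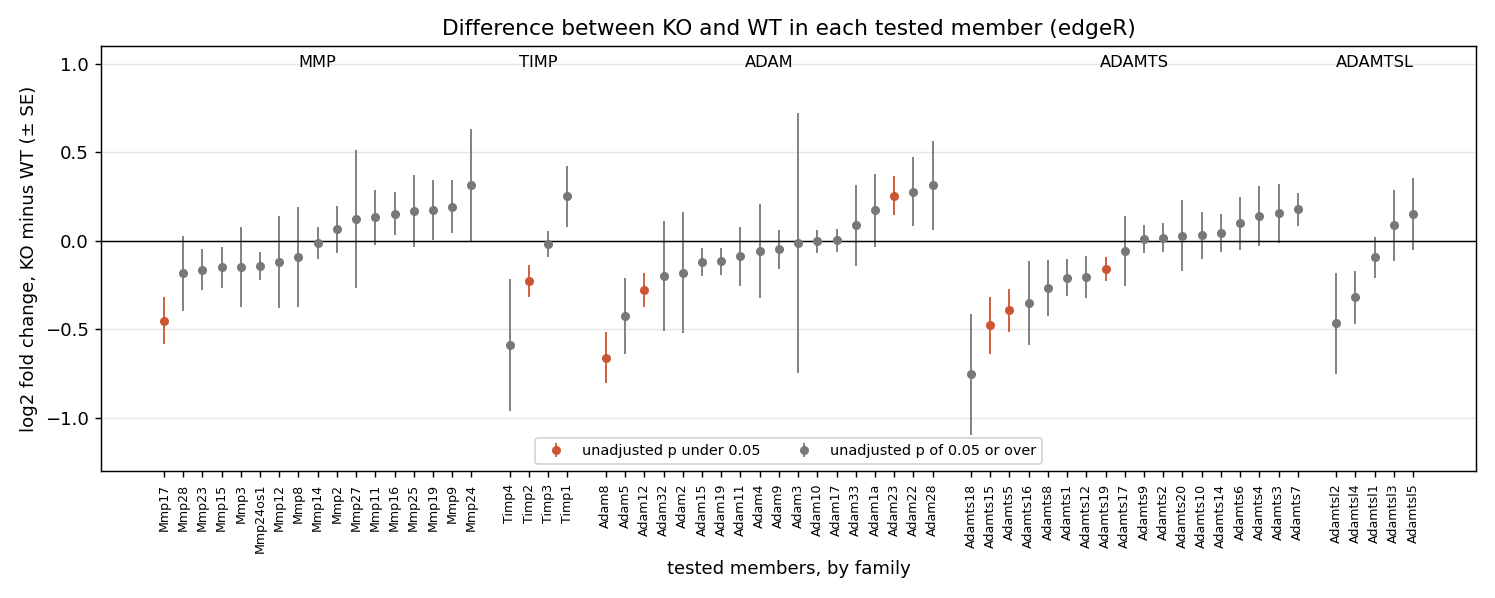
Each point is the log2FC (KO minus WT, vertical axis) of a tested member in edgeR, with its standard error (SE) as the bar, grouped by family and ordered within it. The 8 members in orange have an unadjusted p under 0.05, 7 of them below 0 and Adam23 above, and none passed after adjustment over all genes.

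The member with the highest RNA level was an inhibitor, *Timp1*. Levels of different genes are compared in TPM (the share of a library's transcripts, which takes transcript length into account). Summed over the members, TPM was 2590 to 2953 in WT libraries and 2757 to 3229 in KO libraries, of which the 4 TIMP genes held 42.9%, the MMP genes 27.4%, the ADAMTS genes 16.8%, the ADAM genes 10.7% and the ADAMTSL genes 2.11% on average. *Timp1* alone held 30.2% to 44.3% of the members' TPM, and without it the sum was 1636 to 1823 TPM in WT and 1786 to 1847 TPM in KO. Levels were spread widely among members, with 7 at a mean of 100 TPM or more, 17 between 10 and 100 TPM, 17 between 1 and 10 TPM and 45 under 1 TPM.

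**Figure D2:**
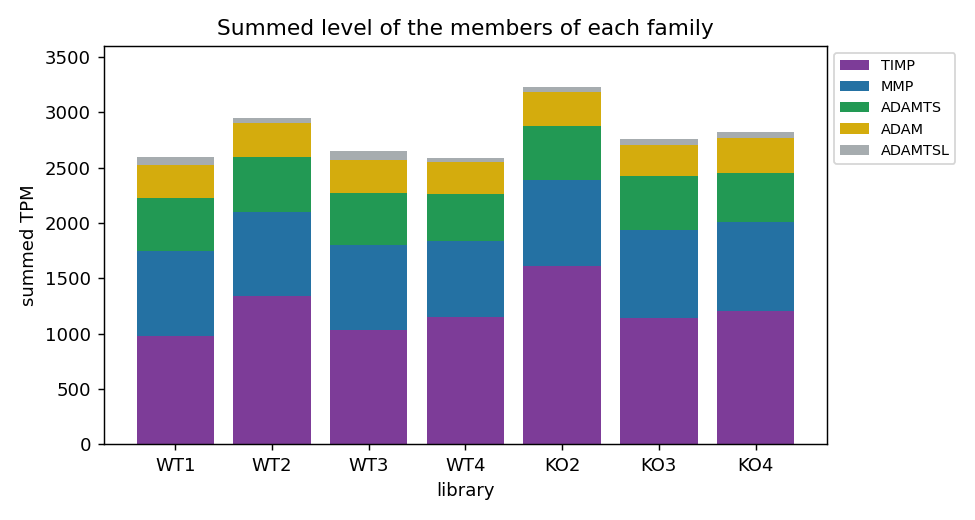
Summed TPM of the members of each family, stacked, in each of the 4 WT and 3 KO libraries. KO2 has the tallest bar, at 3229 TPM, of which 1609 TPM belong to the TIMP genes.

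*Timp1*, which inhibits most secreted MMPs, had the highest mean level of all members. Its mean was 1012 TPM, and it had 382.8, 502.1, 364.9 and 426.2 CPM over WT1 to WT4 and 652.5, 434.7 and 408.6 CPM over KO2 to KO4. KO2 was the highest library and the others overlapped. Its log2FC was 0.25 ± 0.171 SE (edgeR adjusted p = 0.721), and it was 0.01 without KO2. The ratio of *Timp1* to *Mmp2* in TPM was 2.3 to 4.08 in WT and 2.71 to 4.35 in KO.

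*Timp2* inhibits MMPs and also helps *Mmp14* to activate pro-Mmp2 on the cell surface. It had 249.9, 214.3, 235.6 and 213.5 CPM over WT1 to WT4 and 175.4, 192.1 and 218 CPM over KO2 to KO4. Only KO4 reached the range of the WT libraries. For *Timp2* the log2FC was −0.23 ± 0.0897 SE (edgeR unadjusted p = 0.0331, adjusted p = 0.508), with adjusted p from 0.0497 to 1 over the alternatives. With the mean of the smooth muscle markers as a covariate, an alternative added after seeing the data, its log2FC was −0.03 ± 0.131 SE. The summed level of those markers nearly separated the groups, so their part cannot be told apart from that of the genotype. The ratio of *Timp2* to *Mmp14* in TPM was 0.539 to 0.625 in WT libraries and 0.508 to 0.535 in KO libraries, which did not overlap and were not tested.

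*Timp3*, the inhibitor that stays bound to the matrix and also blocks ADAM17 and ADAMTS proteases, was the steadiest of the 4. It lay between 266.1 and 301.8 CPM in WT and between 252.6 and 288.7 CPM in KO, with a coefficient of variation of 5.81% over the 7 libraries and a log2FC of −0.02 ± 0.0718 SE (edgeR adjusted p = 0.963). *Timp4* was at 1.47 to 1.543 CPM in WT1 to WT3 and at 3.794 CPM in WT4, against 1.042 to 1.702 CPM in KO. Its log2FC of −0.59 ± 0.373 SE (edgeR adjusted p = 0.695) was −0.11 without WT4.

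Among the MMPs, the 2 gelatinases were expressed at very different levels. *Mmp2*, made by fibroblasts and other stromal cells, was at a mean of 313.4 TPM, and *Mmp9*, typical of leukocytes, at 0.856 TPM. Within each library the TPM of *Mmp2* was 302 to 443 times that of *Mmp9*. *Mmp2* had 644.4, 476.9, 567.4 and 423.9 CPM over WT1 to WT4 and 547.4, 571.4 and 537.3 CPM over KO2 to KO4, so that the KO libraries lay close together inside the WT range. Neither differed beyond the spread of the replicates (log2FC 0.06 ± 0.131 SE for *Mmp2* and 0.19 ± 0.15 SE for *Mmp9*, edgeR adjusted p = 0.925 and 0.757).

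Of the 6 membrane-type MMPs, *Mmp14*, the main cell-surface collagenase and activator of pro-Mmp2, was the most expressed. Its mean was 189.9 TPM, and it had 327.6, 306.5, 298.9 and 280.5 CPM over WT1 to WT4 and 274.5, 283.8 and 342.7 CPM over KO2 to KO4, so that the KO libraries spanned the WT range. For *Mmp14* the log2FC was −0.01 ± 0.0904 SE (adjusted p = 0.978, edgeR). *Mmp15*, *Mmp17* and *Mmp16* followed at means of 11.3, 3.65 and 3.04 TPM, and *Mmp25* and *Mmp24* were at 0.212 and 0.0761 TPM. *Mmp24os1*, on the other hand, was at 33.5 to 41.4 TPM. The stated processing does not say whether strand was used in the assignment, and *Mmp24os1* overlaps *Mmp24*, so that reads of the pair may be shared.

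*Mmp17*, a membrane-type MMP tethered by a lipid anchor and known in vascular smooth muscle, was the MMP with the lowest p. It had 19.95, 14.86, 18.64 and 16.06 CPM over WT1 to WT4 and 10.7, 14.63 and 12.82 CPM over KO2 to KO4. The groups did not overlap, although KO3 was within 0.3 CPM of WT2. The log2FC was −0.45 ± 0.133 SE (edgeR unadjusted p = 0.00802, adjusted p = 0.355, and adjusted p from 0.0476 to 1 over the alternatives). Of the DESeq2 fits, only the one without KO3 called it. The smooth muscle markers were lower in KO as well, and with their mean as a covariate the log2FC of *Mmp17* was −0.02 ± 0.125 SE. The summed level of these markers nearly separated the groups, and with the covariate the number of all genes with an unadjusted p under 0.05 was 905 against 1720, so their part in the *Mmp17* difference cannot be told apart from that of the genotype.

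The 4 secreted collagenases were at trace levels. *Mmp8* had 11 to 20 reads per library, *Mmp13* had 5 to 11, *Mmp1b* had at most 2 and *Mmp1a* had 1 read in a single library, and of these only *Mmp8* was tested (log2FC −0.09 ± 0.283 SE). *Mmp11*, a stromelysin that is activated inside the cell, was at 33.9 to 57.7 TPM, *Mmp3* at a mean of 3.39 TPM and *Mmp10* and *Mmp7* at 0.102 and 0.0216 TPM. *Mmp11* and *Mmp3* had log2FC values of 0.13 ± 0.155 SE and −0.15 ± 0.225 SE.

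Of the other MMPs, *Mmp23*, an unusual MMP with an N-terminal anchor, was at 69.1 to 88.3 TPM, and *Mmp19*, a secreted MMP known from the ovulating ovary, at 56.9 to 94.2 TPM. *Mmp19* was highest in KO2, at 205.2 CPM, where the other libraries lay between 115.5 and 155.3 CPM. Its log2FC was 0.17 ± 0.168 SE (edgeR adjusted p = 0.812) and −0.06 without KO2, the library in which *Timp1* was highest too. *Mmp23* had a log2FC of −0.16 ± 0.115 SE.

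**Figure D3:**
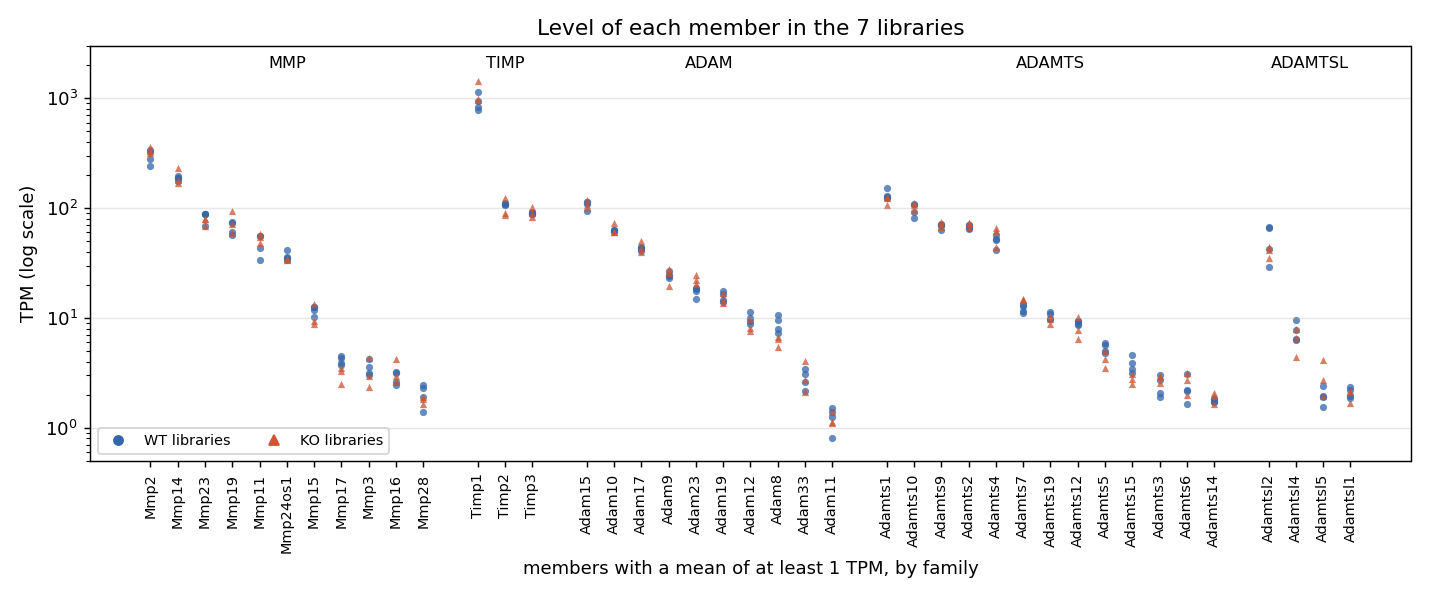
TPM (log axis) of the 41 members with a mean of at least 1 TPM, grouped by family, in the WT libraries (blue circles) and KO libraries (orange triangles). Timp1 lies at the top, between 783.7 and 1431 TPM, and the groups overlap for most members.

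The ADAM genes fell into expressed and silent members. The broadly expressed sheddases *Adam15*, *Adam10* and *Adam17* were at means of 108, 63.2 and 43.5 TPM. *Adam10*, which sheds Notch and cadherins, and *Adam17*, which releases TNF and the EGF-like growth factors of the ovulatory cascade, were the least variable tested members with at least 1 TPM, with coefficients of variation of 4.79% and 5.44% in CPM over the 7 libraries. Their log2FC values were 0.00 ± 0.0637 SE and 0.00 ± 0.0669 SE. *Adam15* had a log2FC of −0.12 ± 0.0795 SE, and only 47.3% to 60.3% of its TPM came from protein-coding transcripts.

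*Adam8*, a sheddase best known from leukocytes and induced by inflammatory signals, had the lowest p of all members. It had 12.45, 16.97, 11.79 and 16.19 CPM over WT1 to WT4 and 9.832, 9.085 and 8.315 CPM over KO2 to KO4. The WT libraries formed a lower pair (WT1 and WT3) and a higher pair (WT2 and WT4), and all KO libraries lay below the lower pair. The WT mean was 14.4 ± 2.61 CPM (SD, n = 4) against a KO mean of 9.08 ± 0.759 CPM (SD, n = 3), with a log2FC of −0.66 ± 0.143 SE (edgeR unadjusted p = 0.00132, adjusted p = 0.236). With DESeq2 the adjusted p was 0.00297, and it was 0.00063 to 0.0401 in the 7 DESeq2 fits that each left out 1 library, all of which called it, whereas in edgeR and limma-voom the adjusted p ranged from 0.0704 to 0.848.

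Several marker lists were set beside *Adam8*. The summed level of 8 macrophage and monocyte markers was 147.9 to 180.3 CPM in WT and 138.5 to 193.9 CPM in KO, with 0 of 8 at an unadjusted p under 0.05, and the log2FC of *Adam8* with their mean as a covariate was −0.66 ± 0.147 SE. For 8 neutrophil markers the sum was 3.89 to 4.98 CPM in WT and 2.99 to 4.48 CPM in KO, with 3 of the 4 tested lower in KO and 0 at an unadjusted p under 0.05. Of these 8, *Cxcr2* was at 0.966 to 1.825 CPM, *Csf3r* at 1.082 to 1.813 CPM and *S100a9* at up to 0.903 CPM, while *Ly6g*, *Mpo* and *Elane* had at most 0.135 CPM in any library. The sum of 7 surface epithelium markers was 36.85, 74.4, 39.16 and 59.95 CPM over WT1 to WT4 and 42.37, 26.42 and 41.43 CPM over KO2 to KO4, and all 7 were lower in KO, with a median log2FC of −0.44. WT2 and WT4 were thus the highest libraries for the sum of these markers as for *Adam8*, and the groups overlapped in the sum. The order did not hold for each marker, as *Lgr5* had 10.46 CPM in WT3 and 5.819 CPM in WT4. It was not particular to these markers either, since WT2 and WT4 were also the higher WT pair for *Timp1*, *Mmp11*, *Mmp19* and *Vcan*. *Upk3b*, a uroplakin of mesothelium and the surface epithelium, had 10.41, 19.71, 9.489 and 16.86 CPM over WT1 to WT4 and 8.494, 4.418 and 7.262 CPM over KO2 to KO4, without overlap. For every other marker of the 7 the groups overlapped. The study also lists *Adam8* in granulosa cells, whose transcripts remained in the tissue. The sum of 10 granulosa markers was 3239 to 4834 CPM in WT and 3912 to 4887 CPM in KO, with 0 of 10 at an unadjusted p under 0.05. These sums do not show whether *Adam8* changed within the granulosa cells that remained. With the granulosa marker mean as a covariate the log2FC of *Adam8* was negative too, and no fit used the neutrophil or surface epithelium markers. Such covariates do not separate cell types in whole tissue. The part of granulosa cells, leukocytes and surface epithelium in the *Adam8* difference was therefore not settled. With the smooth muscle marker mean as a covariate, the log2FC of *Adam8* was −0.97 ± 0.195 SE. Those markers nearly separated the groups, so this value has the same limit as for *Mmp17*.

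In the Salmon estimates, the transcripts of *Adam8* did not share the difference equally. The canonical transcript *Adam8*-201 was at 3.04, 2.82, 2.76 and 4.3 TPM over WT1 to WT4, at 1.44 TPM in KO2, and listed at 0 in KO3 and KO4. The other main coding transcript, *Adam8*-202, was at 0.8, 3.63, 1.5 and 1.9 TPM in WT and at 1.62, 3 and 2.5 TPM in KO, so that the groups overlapped. Protein-coding transcripts together came to 5.18 ± 1.33 TPM (SD, n = 4) for WT against 2.85 ± 0.307 TPM (SD, n = 3) for KO, and transcripts with retained introns or no coding sequence to 3.71 ± 0.352 and 3.32 ± 0.365 TPM. With protein-coding transcripts only, the log2FC was −0.87 ± 0.195 SE (edgeR adjusted p = 0.253). An estimate that divides reads among overlapping transcripts can put a transcript at 0 while its gene is expressed, so the split between *Adam8*-201 and *Adam8*-202 is less certain than the total.

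**Figure D4:**
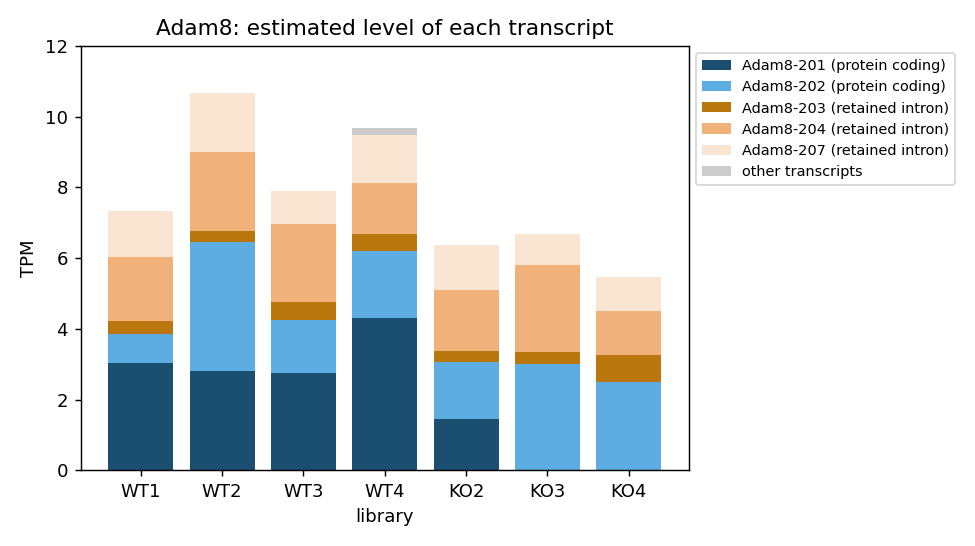
TPM of each Adam8 transcript, stacked, in each library, with protein-coding transcripts in blue and transcripts with retained introns in orange. The dark blue part, Adam8-201, is absent in KO3 and KO4 and at 1.44 TPM in KO2, against at least 2.76 TPM in each WT library.

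*Adam12*, a sheddase of mesenchymal and fusing cells, had 45.43, 46.3, 43.92 and 54.66 CPM over WT1 to WT4 and 36.39, 37.47 and 43.97 CPM over KO2 to KO4. KO4 was level with the lowest WT library and the other KO libraries lay below all WT libraries. For *Adam12* the log2FC was −0.28 ± 0.095 SE (edgeR unadjusted p = 0.0176, adjusted p = 0.421, and 0.0487 to 1 over the alternatives).

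*Adam23*, an adhesive ADAM without protease activity that is known from the nervous system, was the only member higher in KO at an unadjusted p under 0.05. It had 53.44, 44.97, 49.72 and 36.85 CPM over WT1 to WT4 and 53.12, 56.12 and 56.22 CPM over KO2 to KO4. The WT libraries were spread widely, and WT1 exceeded KO2. For *Adam23* the log2FC was 0.25 ± 0.112 SE (edgeR unadjusted p = 0.0496, adjusted p = 0.557, and 0.168 to 1 over the alternatives), and it was 0.17 without WT4. Only 26.1% to 37.2% of its TPM came from protein-coding transcripts, and with these alone the log2FC was −0.16 ± 0.238 SE.

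Most other ADAM genes, many of them known from testis and sperm, were silent or nearly so. Of 22 such genes, 6 were tested, all with a mean under 1 TPM, and 11 had 0 reads in every library. The highest of the group was *Adam1a*, at a mean of 0.91 TPM. Over all families, 24 members were not tested, the highest count among them being 11 reads in a library, and 18 members had at most 3 reads in every library. A difference in these was not detectable at this depth.

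The ADAMTS proteases that cut versican and aggrecan, called hyalectanases, were expressed on 2 levels. *Adamts1*, *Adamts9* and *Adamts4* were at means of 126.8, 69.9 and 53.4 TPM, and *Adamts5*, *Adamts15*, *Adamts20* and *Adamts8* at 4.9, 3.34, 0.92 and 0.75 TPM. *Adamts1*, the protease that cuts versican in the expanding cumulus matrix, had 413.3, 425.9, 359.7 and 358.3 CPM over WT1 to WT4 and 369.2, 352.5 and 289.1 CPM over KO2 to KO4. KO2 lay within the WT range, KO3 just under it and KO4 well under it. For *Adamts1* the log2FC was −0.21 ± 0.103 SE (edgeR unadjusted p = 0.074, adjusted p = 0.592) and −0.11 without KO4. *Adamts9* and *Adamts4* had log2FC values of 0.01 ± 0.0781 SE and 0.14 ± 0.169 SE.

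*Adamts5*, a strong aggrecanase, had 44.85, 35.43, 42.39 and 34.1 CPM over WT1 to WT4 and 25.67, 30.59 and 33.24 CPM over KO2 to KO4. The KO libraries were all under the WT libraries, KO4 by less than 1 CPM. Here the log2FC was −0.39 ± 0.12 SE (edgeR unadjusted p = 0.00984, adjusted p = 0.371, and 0.0357 to 1 over the alternatives). With the smooth muscle marker mean as a covariate it was −0.08 ± 0.155 SE. As for *Mmp17*, those markers nearly separated the groups, so their part cannot be told apart from that of the genotype. *Adamts5* lies 53.1 kb from *Adamts1* on chromosome 16.

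*Adamts15* had 19.31, 12.88, 14.74 and 12.17 CPM over WT1 to WT4 and 12.02, 9.69 and 10.09 CPM over KO2 to KO4. The groups did not overlap, but KO2 lay just under WT4, and WT1 stood above the rest. Its difference was a log2FC of −0.48 ± 0.162 SE (edgeR unadjusted p = 0.0166, adjusted p = 0.42, and 0.0427 to 1 over the alternatives), and it was −0.31 without WT1, while the unadjusted p was 0.062 without KO3 and 0.0547 without KO4. Of the DESeq2 fits, only the one without WT4 called it. With the smooth muscle marker mean as a covariate its log2FC was −0.45 ± 0.293 SE, with the same limit as for *Adamts5*.

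**Figure D5:**
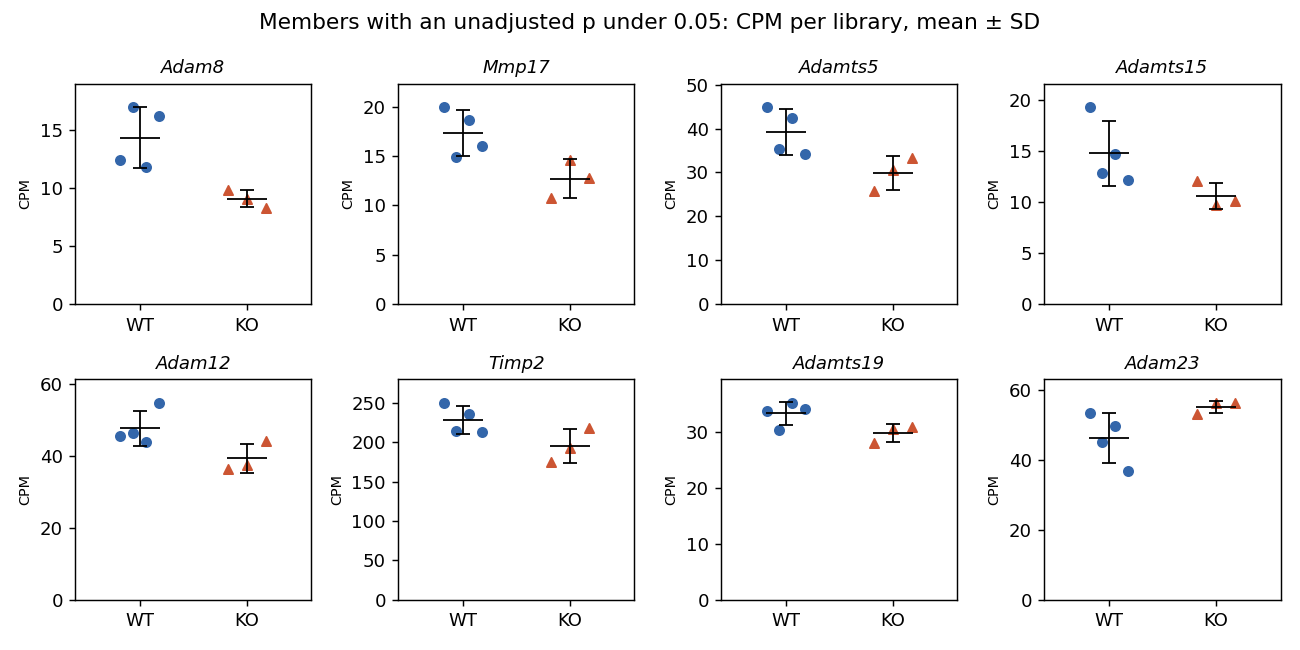
CPM in each WT library (blue circles) and KO library (orange triangles) of the 8 members with an unadjusted p under 0.05, with the mean and SD of each group as bars and each axis starting at 0. The groups are apart for Adam8, Mmp17, Adamts5 and Adamts15 and overlap for Adam12, Timp2, Adamts19 and Adam23.

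The sequences before the start sites of *Adam8* and *Mmp17*, both with all KO libraries below all WT libraries, and of *Adamts1* are given so that these promoters can be compared. Each runs from 250 bases before to 50 bases after the start of the canonical transcript, 5′ to 3′ on the strand of the gene, in GRCm39. Capitals mark the GC box GGGCGG, which binds SP factors, on either strand (CCGCCC where it lies on the other strand). The ranges are chr7:139572426-139572725 (minus strand) for *Adam8*, chr5:129660983-129661282 (plus strand) for *Mmp17* and chr16:85599960-85600259 (minus strand) for *Adamts1*.
Adam8: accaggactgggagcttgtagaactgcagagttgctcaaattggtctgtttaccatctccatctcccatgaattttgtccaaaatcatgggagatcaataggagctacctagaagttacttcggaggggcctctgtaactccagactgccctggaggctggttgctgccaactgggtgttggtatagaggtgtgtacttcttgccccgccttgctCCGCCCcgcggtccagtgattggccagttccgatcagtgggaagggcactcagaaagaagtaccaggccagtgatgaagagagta
Mmp17: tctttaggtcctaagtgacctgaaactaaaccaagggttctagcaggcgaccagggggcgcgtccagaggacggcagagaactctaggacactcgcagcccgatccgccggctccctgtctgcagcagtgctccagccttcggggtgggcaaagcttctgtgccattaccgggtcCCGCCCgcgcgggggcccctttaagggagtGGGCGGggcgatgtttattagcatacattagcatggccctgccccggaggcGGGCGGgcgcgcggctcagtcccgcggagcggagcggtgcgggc
Adamts1: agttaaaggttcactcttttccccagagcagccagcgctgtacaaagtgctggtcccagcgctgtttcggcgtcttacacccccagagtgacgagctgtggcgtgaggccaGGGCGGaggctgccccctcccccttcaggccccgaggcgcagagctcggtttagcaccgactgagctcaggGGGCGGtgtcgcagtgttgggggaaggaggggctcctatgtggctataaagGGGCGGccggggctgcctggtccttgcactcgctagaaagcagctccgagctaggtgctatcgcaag

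Motifs were searched in the same 300 bases of 19232 tested genes. The GC box was found once in the *Adam8* promoter, 35 bases before the start, and 3 times each in those of *Mmp17* and *Adamts1*. It was present in 47.8% of all promoters and in 31 of the 62 members' promoters. The hormone receptor motif TGTTCT, which progesterone, androgen and glucocorticoid receptors bind in pairs, and the AP-1 motif TGANTCA were in none of these 3 windows. Over all promoters they were present in 15.4% and 6.17%, and over the 62 members in 5 (8.06%) and 8 (12.9%). GC content was 52.3% for *Adam8*, 66.0% for *Mmp17* and 63.3% for *Adamts1*, against a median of 55.7% over all genes.

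Of the remaining ADAMTS genes, *Adamts2*, the main procollagen N-proteinase, was at a mean of 69.4 TPM with a log2FC of 0.02 ± 0.0792 SE, and its relatives *Adamts3* and *Adamts14* were at 2.6 and 1.82 TPM. *Adamts10*, which acts on fibrillin microfibrils, was at a mean of 100.4 TPM, but only 21.3% to 29.5% of it came from protein-coding transcripts. A transcript subject to nonsense-mediated decay, *Adamts10*-207, held 24.8% to 29.7%. The log2FC of *Adamts10* was 0.03 ± 0.132 SE and −0.18 with protein-coding transcripts only. *Adamts19*, a protease known from the developing gonad, had 33.7, 30.4, 35.15 and 34.05 CPM over WT1 to WT4 and 28, 30.51 and 30.91 CPM over KO2 to KO4, with a log2FC of −0.16 ± 0.0679 SE (edgeR unadjusted p = 0.0418, adjusted p = 0.534, and 0.39 to 1 over the alternatives). WT2 lay among the KO libraries.

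Among the ADAMTSL genes, *Adamtsl2*, which binds fibrillin and a latent TGF-beta binding protein, was the most expressed, at a mean of 46.6 TPM, and among tested members only *Adam3*, *Timp4* and *Adamts18* varied more between libraries. It had 131, 74.28, 118.8 and 54.05 CPM over WT1 to WT4 and 54.11, 73.35 and 77.8 CPM over KO2 to KO4. The KO libraries lay inside the WT range, with WT1 and WT3 high and WT4 low. Its log2FC was −0.47 ± 0.285 SE (edgeR adjusted p = 0.679), and DESeq2 called it when WT4 was left out.

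Genes that switch these proteases on, hold them at the surface or block them were examined as a list of 23, of which 22 were tested and 0 called in edgeR. At an unadjusted p under 0.05, 3 of the 22 were lower in KO and 1 higher, where the shares over all genes were 5.1% and 3.84%. The KO libraries were all below the WT libraries for 1 (*Spock1*) and all above them for 2 (*Spock3* and *Tspan33*), where the shares over all genes were 5.12% and 3.93%. *Tspan5* and *Tspan15*, tetraspanins that escort *Adam10* to the cell surface, had log2FC values of −0.20 ± 0.0696 SE (edgeR unadjusted p = 0.0171) and −0.36 ± 0.145 SE (edgeR unadjusted p = 0.0343). Of the other tetraspanins on the list, *Tspan14*, *Tspan17* and *Tspan33* were at −0.07 ± 0.0708 SE, −0.001 ± 0.141 SE and 0.37 ± 0.174 SE. *Tspan33* (edgeR unadjusted p = 0.063) had all KO libraries above all WT libraries, and *Tspan10* was not tested. *Spock1* and *Spock3*, testican proteoglycans that can inhibit MMPs or their activators, had log2FC values of opposite sign, −0.78 ± 0.308 SE (edgeR unadjusted p = 0.0316) and 0.82 ± 0.248 SE (edgeR unadjusted p = 0.00914), at 0.552 to 1.93 and 0.846 to 2.98 CPM over the libraries. The adjusted p of *Tspan5*, *Tspan15*, *Spock1* and *Spock3* was at least 0.363 in edgeR with all libraries. With 1 library left out it was as low as 0.233 for *Tspan5* and 0.271 for *Spock3*. DESeq2 called *Spock3* in 1 of the 7 fits that left out 1 library (adjusted p = 0.0334). The log2FC of *Spock1* was −0.47 without WT2 and that of *Tspan15* −0.23 without WT4, and their unadjusted p reached 0.113 and 0.108 with 1 library left out. The proprotein convertase *Furin*, the membrane inhibitor *Reck* and the clearance receptor *Lrp1* had log2FC values of 0.04 ± 0.0876 SE, −0.13 ± 0.136 SE and 0.14 ± 0.0822 SE.

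Matrix proteins that these proteases cut were examined as a list of 19, of which 18 were tested. None had an unadjusted p under 0.05 in edgeR. Between *Fmod* at a log2FC of −0.48 and *Acan* at 0.26, 12 were lower and 6 higher, with a median of −0.05. *Vcan*, which encodes versican, a substrate of *Adamts1*, had 738.6, 1332, 793.9 and 1187 CPM over WT1 to WT4 and 986.3, 709.9 and 1076 CPM over KO2 to KO4. WT1 and WT3 were low and WT2 and WT4 high, and its log2FC was −0.13 ± 0.226 SE.

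Several members are neighbours of the disrupted gene. On chromosome 9 in GRCm39, 10 MMP genes, among them all 4 secreted collagenases but not *Mmp2* or *Mmp14*, lie 1.2 to 1.62 Mb from *Pgr*. Of these, 4 were tested (*Mmp3*, *Mmp8*, *Mmp12* and *Mmp27*), with log2FC values of −0.15, −0.09, −0.12 and 0.12, and 0 had an unadjusted p under 0.05. *Adamts15* and *Adamts8*, which lie 19.9 kb apart, are 21.8 and 21.9 Mb from *Pgr* on the same chromosome. *Adamts8* had 1.749, 1.749, 2.199 and 1.8 CPM over WT1 to WT4 and 1.546, 1.355 and 1.76 CPM over KO2 to KO4, and the groups overlapped (log2FC −0.27 ± 0.158 SE, edgeR adjusted p = 0.662).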

How the data were processed

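Stranded mRNA libraries of 4 WT and 3 KO pools were sequenced by the authors, who assigned paired reads to the GENCODE M26 transcriptome of GRCm39 with Salmon (its version is not given in the sources used here). The deposited files give, per transcript, Salmon's expected counts (estimated reads), TPM values (corrected for length and library total in the same run by the authors), and each transcript's effective length. Transcripts were matched by Ensembl identifier to GENCODE M39 on GRCm39 (137570 of 139225, 98.8%, holding 99.4% of reads in each library), and expected counts and TPM were summed per gene, the counts being rounded.

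KO was compared with WT by edgeR 4.0.16 in R 4.3.3 (TMM, filterByExpr, two-sided quasi-likelihood test), and p-values were adjusted by Benjamini-Hochberg across the 19233 genes tested. The common biological coefficient of variation was 0.127. Counting error depends on the reads of each gene and adds to this for tested members with few reads, such as *Mmp8* with 11 to 20 per library. Calls needed an adjusted p no higher than 0.05 and a log2 fold change (log2FC) of 0.5 or more in size. Standard errors (SE) are the size of the log2FC divided by the root of F. TPM has a library-specific scale (median log2 shifts against CPM of −0.128 in WT1 to 0.098 in KO4), so levels between libraries were compared in CPM and levels between genes in TPM.

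Alternatives were DESeq2 1.42.0, limma-voom (limma 3.58.1), median-of-ratios size factors, other filters, transcript length offsets, protein-coding transcripts only, a replicate block, granulosa or macrophage marker means as covariates, no fold limit, and leaving out each library. A smooth muscle marker covariate and DESeq2 without each library were added after seeing the data. The families, lists and tests were chosen with earlier results of these data known, and the symbol rule then fixed the members. Named genes were *Pgr*, all TIMPs, the 12 other members with the highest mean TPM, members with an unadjusted p under 0.05, a DESeq2 call or groups that did not overlap at a log2FC of 0.3 or more in size, *Adamts1*, *Adam8*, and listed genes with an unadjusted p under 0.05. Other members were named after their values were seen. The fits were tested on simulated data with known changes. Promoters were read from the GRCm39 genome at GENCODE M39 start sites, and those of some members are not reported here. A planned search of protein sequences was not run.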

Additional observations from a re-analysis of the deposited data

Results flagged for a closer look

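Of 62 tested members, 3 had a WT library that stood apart from the other WT libraries by Dixon's criterion at 95% for 4 values, where chance gives about 1 in 20. *Timp4* was at 3.794 CPM in WT4, with the other WT libraries between 1.47 and 1.543 CPM. *Adamts8* was at 2.199 CPM in WT3, with the others between 1.749 and 1.8 CPM. *Adam32* was at 0.3015 CPM in WT3, with the others between 0.199 and 0.211 CPM.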

How the results depend on the processing

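No member was called in any edgeR or limma-voom setting. DESeq2 called 1 (*Adam8*), and 1 to 3 with 1 library left out, the others being *Mmp17* (without KO3) and *Adamts15* and *Adamtsl2* (both without WT4), so that 0 to 3 were called over all fits that left out 1 library. Over all genes, DESeq2 called 143, edgeR without its filter 36, a minimum of 10 counts 6, protein-coding transcripts 7, the granulosa covariate 4, the macrophage covariate 7, the smooth muscle covariate 0, and fits without 1 library 1 to 4 in edgeR and 67 to 244 in DESeq2, against 2. The cause of these differences was not tested. With the smooth muscle covariate, 905 genes and 6 members had an unadjusted p under 0.05. In edgeR fits that left out 1 library, 5 to 11 members and 1166 to 2404 of all genes did. In DESeq2 fits that left out 1 library, 4 to 12 members and 1020 to 2129 of all genes did.

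Same-numbered libraries correlated at −0.013, 0.106 and 0.085 in their deviations from the group means, and unlike-numbered ones at −0.131 to 0.098. With so few pairs, these values do not settle whether same-numbered pools were paired. No pairing is named, so the main fit used none. With the replicate block, 23 genes and 0 members were called, and 12 of 62 members had an unadjusted p under 0.05, against 2232 of 19090 genes. The fit without WT1, which used the same libraries without the block, called 2 genes, with 8 members and 1679 genes at such a p.

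*Pgr* passed the adjusted threshold with DESeq2 (−1.72), no filter (−1.71), at least 10 counts (−1.71), protein-coding transcripts (−1.70) and the macrophage covariate (−1.71), and had −1.82 to −1.52 with 1 library left out. In those fits its adjusted p was 0.0238 to 0.258 in edgeR, and all 7 DESeq2 fits without 1 library called it. The log2FC of *Adam8* was negative in every setting, at −0.745 to −0.57 with 1 library left out.

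Directions reversed with the smooth muscle covariate for *Timp1* (−0.339), *Mmp14* (0.066), *Adamts10* (−0.013), *Mmp23* (0.038), *Mmp19* (−0.261), *Adamts9* (−0.089), *Adam10* (0.055), *Mmp11* (−0.314) and *Adamts19* (0.008), with protein-coding transcripts for *Mmp14* (0.002), *Adamts10* (−0.182), *Adam10* (0.014) and *Adam23* (−0.157), with the block for *Timp3* (0.028), *Mmp14* (0.027) and *Adam10* (0.027), and for *Adam10* also without a filter (0.003) and with at least 10 counts (0.002). With 1 library left out the ranges were −0.052 to 0.044 for *Timp3*, −0.02 to 0.182 for *Mmp2*, −0.117 to 0.046 for *Mmp14*, −0.046 to 0.146 for *Adamts10*, −0.056 to 0.361 for *Mmp19*, −0.05 to 0.069 for *Adamts9*, −0.025 to 0.085 for *Adamts2* and −0.058 to 0.037 for *Adam10*. Of 574 values under alternatives, 504 had the direction and side of the threshold reported above, or a count within 1.5 times that reported. For the 24 members not tested, with at most 11 reads in a library, depth sets the limit.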
